A study of Mus musculus with 4 samples.

Results

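Signal of the nuclear receptor NR2F1 was described at 10 mouse genes that encode histone lysine demethylases: *Kdm1a*, *Kdm2a*, *Kdm2b*, *Kdm3a*, *Kdm3b*, *Kdm4a*, *Kdm4b*, *Kdm5b*, *Kdm6b* and *Kdm7a*. Peaks called in the 4 libraries were merged where they overlapped by at least 1 bp, which gave 263639 regions, and a region was assigned to a gene when it lay within the gene body or 20 kb on either side. The 10 genes, of 21951 annotated protein-coding genes, held 223 regions. Of these, 34 had a peak in every library and all 34 were tested, of 35770 regions tested in all. The genes were picked with the height and extent of their NR2F1 peaks already known, *Kdm6b* foremost. Levels are therefore given as a description, with no test of whether they stand out.

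The data are single-cell CUT&Tag, in which an antibody to NR2F1 brings the transposase Tn5 to the protein so that DNA is cut beside it. Cells came from embryonic day 10.5 hindbrain, from rhombomere 4 and the tissue beside it, of embryos carrying the Isl1MN-GFP transgene, which marks motor neurons. There were 2 WT and 2 Fam5snv/snv libraries. Fam5snv/snv embryos are homozygous for a knocked-in single-nucleotide change in cRE2, a regulatory element near *Gata2*, and both genotypes carry the transgene. Embryos were pooled within a library. The study describes the sorted cells as GFP-positive, but the labels of these samples say that the gates were opened to GFP-negative cells late in the sort, so other cell types could be present.

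Histone lysine demethylases remove methyl groups from histone tails. KDM1A uses a flavin cofactor, and the others listed here use a Jumonji C domain with iron. KDM6B acts on lysine 27 of histone H3, the mark of Polycomb repression. KDM5B acts on methylated lysine 4, found at active promoters, and KDM3A and KDM3B act on lysine 9. KDM4A and KDM4B act on lysines 9 and 36, KDM7A on lysines 9 and 27, and KDM2A and KDM2B, which bind unmethylated CpG through a zinc finger, on lysine 36. NR2F1, also called COUP-TFI, binds DNA at repeats of the hexamer AGGTCA.

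The libraries differed in depth and in how much was called. They held 1377 to 2740 barcodes and 3083946 and 3580517 cut sites for WT against 8967987 and 10341894 for Fam5snv/snv. WT replicate 1 stood apart, with 42168 peaks over 31.0 Mb, where the others had 137996 to 170993 peaks over 93.1 to 143 Mb. The tested regions took 99.5% of its cut sites and 74.1% to 79.9% of those of the other libraries. Libraries shared 3 to 12 barcodes per pair, at most 0.799% of the smaller one. Promoters of the motor neuron factors *Phox2a* and *Tbx20* had mean WT signals of 105 and 98.1 CPM, which are cut sites per 1000000 cut sites in tested regions after TMM scaling, while *Mnx1* had no tested promoter region. No RNA was measured, so these values do not name the cells. Signal at the tested endothelial promoters, *Erg* and *Sox18*, went from a WT mean of 24.2 to 49.4 CPM and from 59.3 to 88.4 CPM, log2 fold changes of 1.03 and 0.57 (unadjusted p = 0.00213 and 0.0265, edgeR, adjusted p = 0.573 for both), and *Cdh5* had no tested promoter. Summed over this list, WT libraries had 77.4 and 89.7 CPM and Fam5snv/snv libraries 136 and 139 CPM. The mesenchymal *Prrx1* was lower (log2 fold change -1.33, unadjusted p = 0.0445, adjusted p = 0.575, edgeR), with WT values of 9.81 and 22.5 CPM. *Twist1* and *Pdgfra*, also on its list, were at 0.13 and -0.08. The 3 promoters of this list had sums of 50.4 and 87.9 CPM for WT, against 57.2 and 60.7 CPM for Fam5snv/snv. The part of other cell types in the values below was not tested.

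NR2F1 signal covered a promoter of each of the 10 genes in every library. The genes were picked with their peaks known, and the share of all annotated genes so covered was not counted. The coverage is therefore not read as a trait of these genes. A promoter region here overlaps 1 kb on either side of the start of a coding transcript, and by this measure 13 of the 34 tested regions were promoters of the genes themselves, 8 were promoters of neighbouring genes and 13 lay in gene bodies or flanks. *Kdm2a*, *Kdm2b* and *Kdm4b* had 2 tested promoter regions each. The median tested Kdm region had a mean WT signal of 28.4 CPM, against 15.6 CPM over all tested regions, and the own promoters had 35.1 CPM against 30.0 CPM over all 12647 tested promoter regions.

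The region at *Kdm6b* stood out for its breadth. It spanned 13872 bp (mm10 chr11:69408084-69421955) around the start of the gene, which GENCODE places at 69413675 on the minus strand, and reached 8.28 kb upstream of that start and 5.59 kb into the gene. It held 1969 cut sites in WT replicate 1, 1310 in WT replicate 2, 3228 in Fam5snv/snv replicate 1 and 3261 in Fam5snv/snv replicate 2. By mean WT signal (575 CPM) it ranked 8 of 35770 regions, and by covered length 29. RefSeq lists 12 mRNAs of *Kdm6b*, which all start inside the region, 5 of them upstream of the GENCODE start and the farthest 6.69 kb upstream. RefSeq also lists *Gm51903*, a noncoding RNA on the opposite strand, over part of this stretch (mm10 chr11:69415513-69420803). The outer end of the region lies beyond every *Kdm6b* transcript, inside *Dnah2*. That gene is on the minus strand too, with its 3′ end at 69420807 and its start far off at 69549108. In both WT libraries the region was called as 2 peaks with a gap inside the first kilobases of the gene. In both Fam5snv/snv libraries it was called as 1 peak. The WT libraries held fewer cut sites in all (3083946 and 3580517, against 8967987 and 10341894), and peaks were called separately in each library. The part of depth in this gap was not tested.

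**Figure D1:**
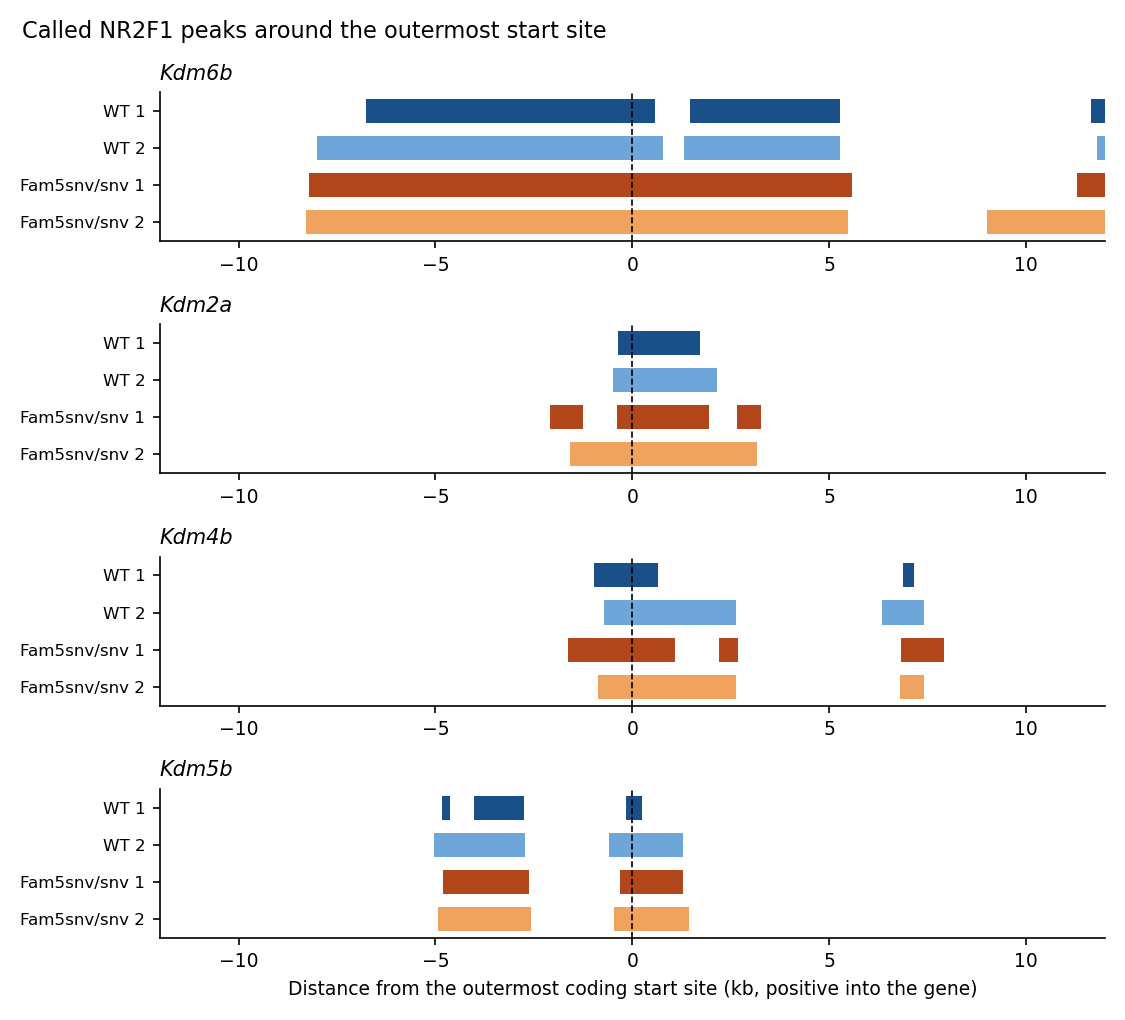
Called NR2F1 peaks (bars) around the outermost coding start site (dashed line) of *Kdm6b*, *Kdm2a*, *Kdm4b* and *Kdm5b*, in kb with positive values into the gene, 1 line per library. The *Kdm6b* bars reach 6.76 kb upstream in WT replicate 1 and 8.01 to 8.28 kb in the others. A gap is seen only in the 2 WT libraries, which held fewer cut sites. At *Kdm5b* every library has bars both upstream of the start and over it. Bars show the extent of peaks, not their signal.

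Peaks of *Kdm6b* covered 11143 bp in WT replicate 1, 12756 bp in WT replicate 2, 13815 bp in Fam5snv/snv replicate 1 and 13753 bp in Fam5snv/snv replicate 2. This promoter region took 85.6%, 76.2%, 77.4% and 76.7% of all cut sites assigned to the gene, in the same order. Per kb of called peak its signal was 61.9, 36.1, 31.9 and 30.0 CPM, ranks 1588, 1429, 1256 and 959 of 35770. It therefore ranked higher by total and by breadth than by density. The rest of the gene held a region over its 3′ exons (mm10 chr11:69400836-69404664) with 34.7, 17.6, 31.3 and 29.6 CPM, at which GENCODE also lists the antisense *Kdm6bos*, and a region at the shared promoters of *Cyb5d1*, *Naa38* and *Tmem88* with 81.3, 106, 74.2 and 73.2 CPM.

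*Kdm2a* had the densest signal of the 10 leading promoters in 3 of the 4 libraries. At its main promoter (mm10 chr19:4395011-4400377) signal per kb of called peak was 134, 66.6, 45.5 and 34.4 CPM in WT replicates 1 and 2 and Fam5snv/snv replicates 1 and 2, ranks 76, 114, 313 and 555. In Fam5snv/snv replicate 2 *Kdm4a* was denser, at 40.0 CPM per kb. In WT replicate 1 the order of density went on with *Kdm4b* (101 CPM per kb), *Kdm3a* (76.4), *Kdm6b* (61.9) and *Kdm4a* (57.3). In WT replicate 2 *Kdm4a* (46.3 CPM per kb) and *Kdm3a* (44.8) came before *Kdm6b* (36.1) and *Kdm4b* (34.5), so the order of these 4 genes was not the same in the WT libraries. *Kdm1a* (16.97 and 12.97 CPM per kb) and *Kdm5b* (16.6 and 10.1) were the lowest in both. A density depends on how wide the peak was called, and peaks were called separately in each library.

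**Figure D2:**
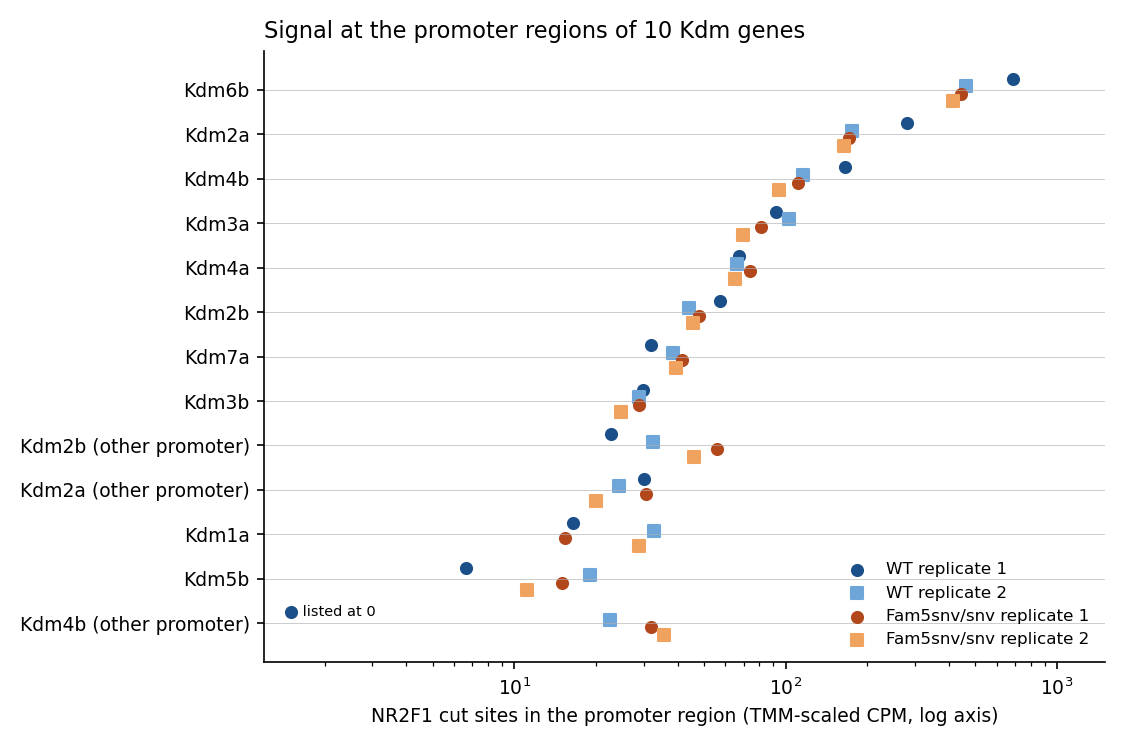
NR2F1 signal (TMM-scaled CPM, log axis) at the 13 tested promoter regions of the 10 genes, 1 point per library, ordered by WT mean. *Kdm6b* lies at 412 to 690 CPM and *Kdm5b* at 6.66 to 19.0 CPM, and the marked WT replicate 1 point of *Kdm4b* is listed at 0.

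Totals at the other promoters are given in the order WT replicate 1, WT replicate 2, Fam5snv/snv replicate 1, Fam5snv/snv replicate 2. *Kdm2a* held 281, 175, 172 and 163 CPM at its main promoter and 30.1, 24.3, 30.5 and 19.98 CPM at an internal one (mm10 chr19:4332644-4334892). *Kdm4b* held 166, 116, 111 and 94.6 CPM (mm10 chr17:56324432-56328736). *Kdm3a* held 92.1, 103, 81.3 and 69.7 CPM (mm10 chr6:71631212-71633820). At each of these 3 main promoters both Fam5snv/snv values lay below both WT values, and for *Kdm2a* and *Kdm4b* WT replicate 2 lay nearer to Fam5snv/snv than to WT replicate 1. *Kdm4a*, in contrast, held 67.6, 66.5, 74.0 and 64.99 CPM (mm10 chr4:118178692-118180951), where the genotypes overlapped.

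The remaining promoter regions had smaller totals. *Kdm7a* held 31.9, 38.3, 41.7 and 39.3 CPM (mm10 chr6:39204946-39207655), both Fam5snv/snv values being above both WT values by a small margin. *Kdm3b* held 29.8, 28.8, 28.8 and 24.7 CPM (mm10 chr18:34776495-34778063), and *Kdm1a* 16.5, 32.7, 15.4 and 28.8 CPM (mm10 chr4:136599974-136603565), and at both the genotypes overlapped. At *Kdm1a* replicate 2 was the higher in both genotypes.

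At *Kdm5b* a region upstream of the gene was denser than the promoter region. The region over its start (mm10 chr1:134559585-134561611) held 6.66, 19.0, 15.0 and 11.1 CPM. A region 2585 bp upstream of its start (mm10 chr1:134555128-134557586) held 70.1, 53.1, 50.6 and 49.7 CPM. Density per kb of called peak was 48.0, 23.0, 23.0 and 21.03 CPM upstream against 16.6, 10.1, 9.35 and 5.81 CPM over the start, so the upstream region was the denser in every library. No coding start was annotated there.

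Between the genotypes, none of the 34 regions passed an adjusted p of 0.05 in edgeR's quasi-likelihood test over all 35770 tested regions. The share of all tested regions called was 0% for higher and 0% for lower in Fam5snv/snv. At an unadjusted p under 0.05, 5 Kdm regions were higher in Fam5snv/snv (14.7%, background 5.29%) and 1 was lower (2.94%, background 3.37%). Both Fam5snv/snv libraries lay above both WT libraries at 8 regions (23.5%, background 23.2%) and below both at 12 (35.3%, background 21.4%). Promoters made up 21 of the 34 Kdm regions but only 12647 of the 35770 tested regions. Over all tested promoter regions the median log2 fold change was -0.21, with 30.0% above 0. The share of promoter regions below both WT libraries was not counted, so the 35.3% has no background of like regions. DESeq2, on the same counts, called 366 regions higher and 194 lower, of which 1 was a Kdm region, described below. The fit left 2 residual degrees of freedom, with a biological coefficient of variation of 0.305, and 2 against 2 libraries cannot give an exact permutation p below 0.333. Each library pools embryos, so these p-values measure the spread between libraries, part of which may be technical. A fit that leaves out 1 WT library rests on a lone WT library, which is assumed to vary like the Fam5snv/snv libraries. Such fits called many regions over all tested regions too. Where a gene below is called only in such a fit, the call is not read as a difference at that gene.

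The median log2 fold change (Fam5snv/snv minus WT) over the 34 regions was -0.12, with 13 above 0, against 0.02 over all tested regions, where 51.7% were above 0. The 13 own promoters had a median of -0.12 against -0.21 over all tested promoter regions, and the 8 neighbouring promoters -0.30. Of the 10 leading promoters, those with the highest mean WT signal at each gene, 3 were above 0.

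**Figure D3:**
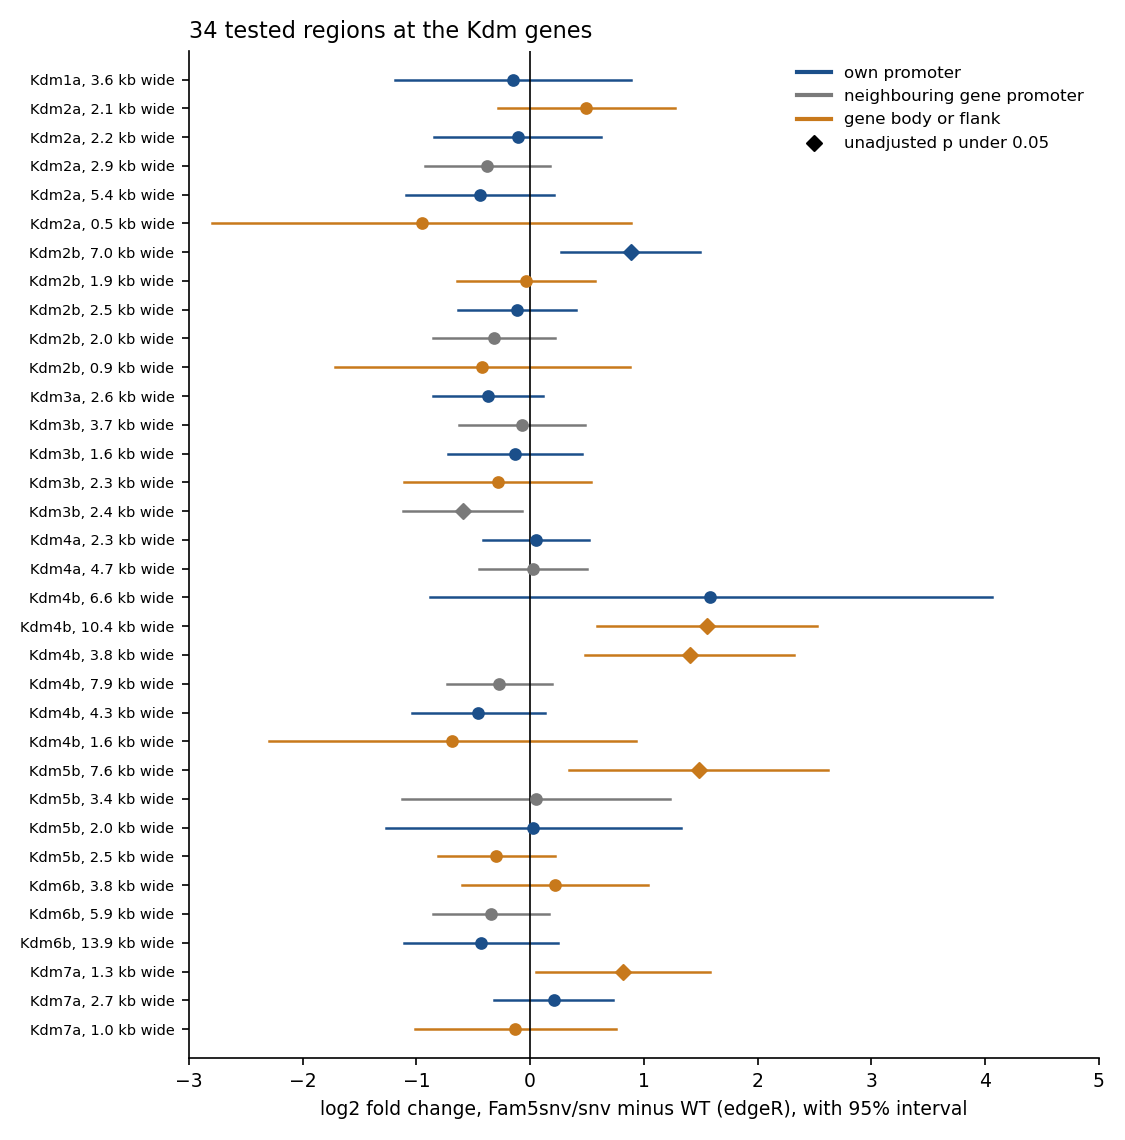
edgeR log2 fold change (Fam5snv/snv minus WT) with its 95% interval for the 34 tested regions, grouped by gene and coloured by place, diamonds marking an unadjusted p under 0.05. 28 of the intervals cross 0, and the 5 regions with diamonds above 0 lie at 0.82 to 1.56.

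At *Kdm6b* the 4 values of 690, 461, 441 and 412 CPM gave a log2 fold change of -0.43 (SE 0.29, 95% interval -1.11 to 0.25, adjusted p = 0.648, edgeR). Signal in WT replicate 2 and in the Fam5snv/snv libraries lay close together, and WT replicate 1 was above the rest. Without WT replicate 2 the log2 fold change was -0.69 and was called (adjusted p = 0.000345, with 0.000345 to 1 over the 14 alternatives), and without WT replicate 1 it was -0.12 (adjusted p = 0.575). Taking signal per kb of called peak, which was chosen after seeing the data, moved the median of all regions by -0.76, and *Kdm6b* was 0.09 above that median.

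*Kdm2a* and *Kdm4b* behaved the same way at their main promoters. Their log2 fold changes were -0.44 (SE 0.28, adjusted p = 0.633) and -0.46 (SE 0.25, adjusted p = 0.608). Without WT replicate 2 they were -0.74 and -0.69 (adjusted p = 0.00104 and 0.00595, edgeR, with 0.00104 to 1 and 0.00595 to 1 over 13 alternatives), and without WT replicate 1 they were -0.07 and -0.18 (adjusted p = 0.824 and 0.571). *Kdm3a* had -0.37 (SE 0.20, adjusted p = 0.613), from -0.48 to -0.26 with any 1 library left out. None of *Kdm4a* (0.05), *Kdm7a* (0.21), *Kdm3b* (-0.13), *Kdm1a* (-0.15), *Kdm5b* (0.03) and the internal *Kdm2b* promoter (-0.12) had a standard error smaller than its log2 fold change.

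*Kdm2b* had 2 tested promoter regions that went apart. Other promoter regions of the gene had no peak in WT replicate 1 and were not tested. The larger of them (mm10 chr5:122950395-122952900) held 47, 117 and 165 cut sites in WT replicate 2 and Fam5snv/snv replicates 1 and 2. KDM2B is known to bring a Polycomb complex to unmethylated CpG islands. The tested internal promoter of *Kdm2b* (mm10 chr5:122898883-122901422) held 57.5, 44.0, 48.0 and 45.5 CPM, where the genotypes overlapped. The outer promoter (mm10 chr5:122985270-122992221) held 22.8, 32.4, 55.9 and 45.9 CPM, where both Fam5snv/snv values lay above both WT values. GENCODE also lists the noncoding *Gm44574* and the antisense *A930024E05Rik* over the outer region. The outer region had a log2 fold change of 0.88 (SE 0.26, unadjusted p = 0.0113, adjusted p = 0.573, edgeR). Without WT replicate 2 it was 1.16 and was called (adjusted p = 0.00536, with 0.00536 to 1 over 13 alternatives), and it was 0.65 without WT replicate 1 (adjusted p = 0.131). Peaks covered 1247 and 3659 bp of it in WT and 6396 and 5817 bp in Fam5snv/snv. Per kb of called peak its signal was 18.3, 8.84, 8.74 and 7.89 CPM, and the difference between the 2 promoters was not tested.

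A RefSeq promoter window (250 bases before to 50 after the start, GRCm38.p6) from each of these *Kdm2b* regions is shown because the pair differ in CpG content, and neither holds AGGTCA, so no letters are in capitals. Both are read on the minus strand. The internal one (mm10 chr5:122900301-122900600) has 49 CpG and 81.7% G and C, the outer one (mm10 chr5:122989050-122989349) 28 CpG and 63.7%.

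Kdm2b internal promoter: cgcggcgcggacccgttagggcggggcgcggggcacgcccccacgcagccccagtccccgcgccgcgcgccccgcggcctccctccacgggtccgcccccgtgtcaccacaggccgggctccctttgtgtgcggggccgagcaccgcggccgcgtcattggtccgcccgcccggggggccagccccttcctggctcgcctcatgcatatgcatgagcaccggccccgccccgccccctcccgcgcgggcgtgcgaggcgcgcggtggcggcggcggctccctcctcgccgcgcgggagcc
Kdm2b outer promoter: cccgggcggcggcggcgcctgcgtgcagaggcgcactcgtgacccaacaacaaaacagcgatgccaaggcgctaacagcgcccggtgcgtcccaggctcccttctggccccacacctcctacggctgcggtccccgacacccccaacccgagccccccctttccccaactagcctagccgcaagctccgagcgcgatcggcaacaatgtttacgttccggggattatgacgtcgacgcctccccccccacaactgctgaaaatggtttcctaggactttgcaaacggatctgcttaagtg

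*Kdm4b* had longer called peaks in Fam5snv/snv at some regions inside the gene, but not at every one. A region inside an intron (mm10 chr17:56347344-56351188) held 9.46, 7.03, 18.9 and 24.8 CPM, a log2 fold change of 1.40 (SE 0.39, unadjusted p = 0.00847). A region over its last exons (mm10 chr17:56398291-56408665), which runs past the end of the gene at 56402870, held 11.2, 28.8, 51.1 and 66.6 CPM, a log2 fold change of 1.56 (SE 0.41, unadjusted p = 0.00654). Both Fam5snv/snv values lay above both WT values in each. Adjusted p was 0.573 for both in edgeR, and the second was the Kdm region that DESeq2 called (1.54, adjusted p = 0.0252).

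Leaving out WT replicate 1 gave 1.62 and 1.02 for the intron and the last exons (adjusted p = 0.0347 and 0.024, edgeR), and leaving out WT replicate 2 gave 1.21 and 2.39 (adjusted p = 0.0422 and 0.000108). Over 13 alternatives the adjusted p ran from 0.0347 to 1 and from 0.000108 to 1. Peaks over the last exons covered 713 and 4132 bp in WT and 7647 and 10154 bp in Fam5snv/snv, and over the intron 585, 788, 2262 and 3822 bp. Per kb of called peak they were 0.01 and 0.06 above the median change of all regions, intron and last exons in turn. An internal promoter between them (mm10 chr17:56391088-56397672) was listed at 0 in WT replicate 1, where its peak spanned 2 bp, and at 22.5, 31.9 and 35.8 CPM in the others, a log2 fold change of 1.59 (SE 1.05, adjusted p = 0.644, edgeR). Without WT replicate 1 it was 0.58 (adjusted p = 0.249). The internal promoter was called without WT replicate 2 (adjusted p = 3.33e-05, with 3.33e-05 to 1 over 12 alternatives), but the lone WT value is then 0 and the fitted change is no bound.

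The other differences at an unadjusted p under 0.05 lay near *Kdm5b*, *Kdm7a* and *Kdm3b*. A region downstream of *Kdm5b* (mm10 chr1:134635378-134642952), over the noncoding *Gm26783*, held 5.96, 18.6, 31.6 and 37.3 CPM (log2 fold change 1.48, SE 0.48, unadjusted p = 0.0177), with 264 and 2335 bp under peaks in WT and 4910 and 6330 bp in Fam5snv/snv. Without WT replicate 2 it was 2.53 and was called (adjusted p = 0.000387, with 0.000387 to 1 over 12 alternatives), and without WT replicate 1 it was 0.88 (adjusted p = 0.0939, edgeR). A region over exons of *Kdm7a* (mm10 chr6:39145647-39146904), where GENCODE also lists the antisense *4930599N23Rik*, held 12.6, 16.2, 22.1 and 28.6 CPM (log2 fold change 0.82, SE 0.33, unadjusted p = 0.0404). Per kb of called peak it was 0.80 above the median change of all regions, where the other 4 regions higher in Fam5snv/snv ran from -0.34 to 0.08.

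The region that was lower was the promoter of *Fam53c*, upstream of *Kdm3b* (mm10 chr18:34758424-34760813). It held 76.4, 59.1, 42.0 and 47.8 CPM (log2 fold change -0.59, SE 0.22, unadjusted p = 0.0312, adjusted p = 0.573, edgeR). Both Fam5snv/snv values lay below both WT values. Without WT replicate 2 it was -0.77 and was called (adjusted p = 0.0133, with 0.0133 to 1 over 14 alternatives), and without WT replicate 1 it was -0.40 (adjusted p = 0.288).

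The change in cut sites went with the change in called length, both at the Kdm genes and in general. At the 20 Kdm regions whose mean covered length in Fam5snv/snv was under 1.5 times that in WT, the median log2 fold change was -0.31, as over the 14637 tested regions of that kind (-0.31). At the 10 regions from 1.5 to 3 times it was 0.04, against 0.24 over 17629 regions. At the 4 regions of 3 times and more it was 1.52, against 1.24 over 3504 regions, of which 99.5% were above 0. Counts exist only inside called peaks, so cut sites outside a library's peaks are not in them. What the longer peaks come from was not tested.

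**Figure D4:**
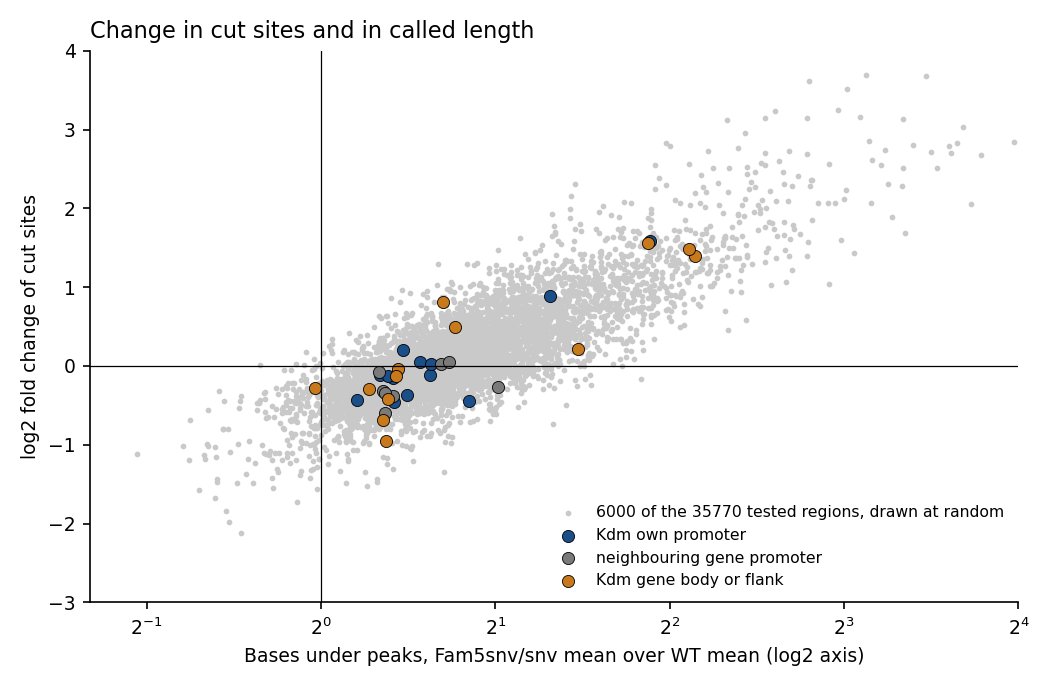
log2 fold change of cut sites (Fam5snv/snv minus WT) against the ratio of bases under peaks (Fam5snv/snv mean over WT mean, log2 axis) for the 34 Kdm regions, over 6000 of the 35770 tested regions drawn at random in grey. The Kdm regions lie within the grey band, and the 4 with ratios of 3 or more have log2 fold changes of 1.40 to 1.59.

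The 189 regions that were not tested lacked a peak in at least 1 library. None of them had a peak in WT replicate 1, where 0.675% of all untested regions had one. The 189 had a median width of 343 bp, against 2660 bp for the tested Kdm regions. Peaks lay in 73 of them in WT replicate 2 (38.6%, against 46.6% of all untested regions). In Fam5snv/snv replicates 1 and 2 the counts were 99 (52.4%, against 41.4%) and 122 (64.6%, against 58%). The 189 regions held 12.2%, 14.4% and 18.5% of the cut sites assigned to the 10 genes in these libraries, in the same order. Of the 189, 116 were called only in Fam5snv/snv libraries (61.4%), against 52.8% of all untested regions, and 27 were called in both of them and in no WT library (14.3%, against 10.2% of all untested regions). Another 27 were called only in WT, all of them in WT replicate 2 (14.3%). Of all untested regions, 25.5% were called only in WT, in either library.

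Among single barcodes, *Kdm6b* was again the most often cut. Barcodes were thinned to 567 cut sites each, the 25th percentile of WT replicate 1, which left out 641 barcodes of that library and none of the others. The share with a cut site in the *Kdm6b* promoter region was 21.2% in WT replicate 1 (exact 95% interval 19.4% to 23.1%), 16.0% in WT replicate 2 (14.08% to 18.02%), 16.9% in Fam5snv/snv replicate 1 (15.4% to 18.5%) and 14.7% in Fam5snv/snv replicate 2 (13.4% to 16.1%). Without thinning the shares were 27.3%, 31.3%, 41.9% and 38.7%, another order, with WT replicate 1 lowest and not highest. Median cut sites per barcode were 879, 1867, 2694 and 2984 in these libraries. A barcode held up to 34 cut sites there.

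Shares at *Kdm2a* were 9.48%, 6.61%, 6.82% and 6.13% after thinning. *Kdm4b* had 5.49%, 4.43%, 4.62% and 3.76%, and *Kdm3a* had 3.42%, 4.43%, 2.77% and 2.70%. At *Kdm5b* the share was lowest, 0.104% in WT replicate 1 (2 of 1931 barcodes) and 0.352% to 0.872% in the others. Wide regions collect more cut sites, and no region free of NR2F1 was set beside these shares, so they are not read as shares of bound cells. Intervals cover counting error only. Thinning draws from cut sites inside called peaks, which in WT replicate 1 are spread over fewer peaks.

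**Figure D5:**
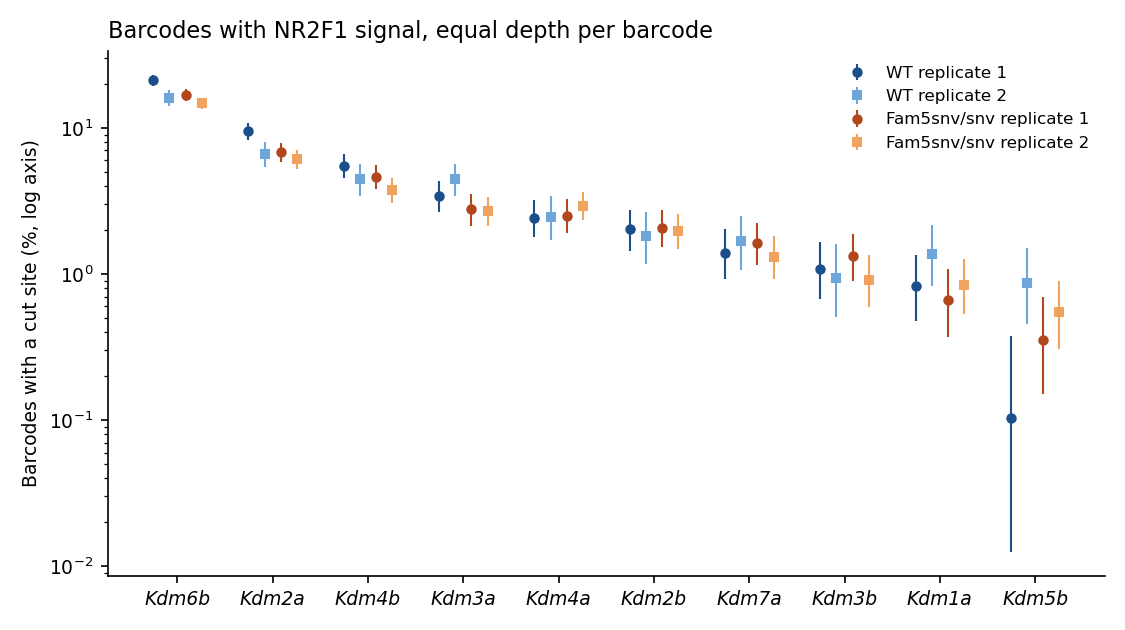
Share of barcodes with a cut site in the leading promoter region of each gene (log axis) after thinning each barcode to 567 cut sites, with exact 95% intervals. *Kdm6b* lies at 14.7% to 21.2% in the 4 libraries and *Kdm5b* at 0.104% to 0.872%.

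Sequence of the regions was searched for AGGTCA on either strand, and for a direct repeat of it with 1 base between the copies, with up to 2 mismatches. Within 250 bp of the midpoint AGGTCA was found in 8 of the 34 Kdm regions (23.5%), against 33.7% of all tested regions and 21.8% of tested promoter regions. The repeat was at the midpoint of 0 of 34, against 11.3% of all tested regions and 5.64% of tested promoter regions. Over whole regions, the repeat was in 14 of 34 (41.2%), against 36.0%. That share rises with width, and the tested Kdm regions had a median width of 2660 bp against 1922 bp. Per kb the repeat came at 0.263 against 0.229, with 17 of the Kdm matches at *Kdm4b*. AGGTCA came at 0.697 per kb against 0.828. No Kdm region held an exact repeat, and 689 of the tested regions did.

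Of the 34 repeat matches, 5 had 1 mismatch, and all 5 were at *Kdm4b*. They are shown with 20 bases on either side, 5′ to 3′ on the strand of the repeat, the repeat in capitals. The first lies in the main promoter region (mm10 chr17:56325021-56325033, minus), under a peak of 1 library. The second lies in the intron region (mm10 chr17:56347683-56347695, plus), under peaks of 2. The third (mm10 chr17:56392933-56392945, minus) and the fourth (mm10 chr17:56397435-56397447, minus) lie in the internal promoter region, under peaks of 2 libraries and 1 library. The last lies in the region over the last exons (mm10 chr17:56405483-56405495, minus), under peaks of all 4 libraries.

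Kdm4b main promoter: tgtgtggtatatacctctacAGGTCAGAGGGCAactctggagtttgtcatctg
Kdm4b intron: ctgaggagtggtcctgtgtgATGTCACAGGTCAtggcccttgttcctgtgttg
Kdm4b internal promoter, first: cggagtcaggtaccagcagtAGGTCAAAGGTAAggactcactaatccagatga
Kdm4b internal promoter, second: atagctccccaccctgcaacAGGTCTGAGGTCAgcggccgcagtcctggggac
Kdm4b last exons: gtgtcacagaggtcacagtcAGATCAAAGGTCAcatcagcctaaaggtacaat

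The *Kdm6b* region held 10 copies of AGGTCA and 3 repeat matches with 2 mismatches. One lies 1.22 kb into the gene (mm10 chr11:69412451-69412463, minus), in the stretch where both WT libraries had a gap between peaks, and was under peaks of the 2 other libraries. The others overlap each other 7.80 and 7.81 kb upstream (mm10 chr11:69421468-69421480 and chr11:69421475-69421487, minus), near the outer edge of the region, inside *Dnah2* and beyond every *Kdm6b* transcript, and each was under peaks of 3 libraries. They are shown because they are the closest matches in the widest region of the family.

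Kdm6b inside the gene: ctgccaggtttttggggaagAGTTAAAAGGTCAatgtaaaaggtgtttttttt
Kdm6b upstream, first: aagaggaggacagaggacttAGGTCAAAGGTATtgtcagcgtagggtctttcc
Kdm6b upstream, second: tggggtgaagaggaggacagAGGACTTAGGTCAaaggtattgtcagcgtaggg

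RefSeq promoter windows were matched for 6 of the 10 genes, 11 windows in all, and 1 of them, at *Kdm1a* (mm10 chr4:136602674-136602973, minus), held AGGTCA. Over all 32851 windows 16.3% did, and 3.86% held the repeat, which none of the 11 did. The *Kdm1a* window is shown as the only one of the 11 with the hexamer, in capitals.

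Kdm1a promoter: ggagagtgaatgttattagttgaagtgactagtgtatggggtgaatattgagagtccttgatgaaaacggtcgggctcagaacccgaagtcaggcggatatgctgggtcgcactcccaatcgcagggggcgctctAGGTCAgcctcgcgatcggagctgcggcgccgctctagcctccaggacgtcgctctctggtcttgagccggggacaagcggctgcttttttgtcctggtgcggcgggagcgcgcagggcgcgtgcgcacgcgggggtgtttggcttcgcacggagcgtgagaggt

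A match is a run of letters and says nothing of binding. Of the 34 regions, the median G and C content around the midpoint was 55.5% against 52.2% over all tested regions, and 57.8% at the own promoters against 60.8% over all tested promoter regions.

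Promoters of genes that act with or against these enzymes had NR2F1 signal too. The share of all annotated genes with a tested promoter region was not counted, so the counts for these lists have no background. Of 17 other lysine demethylase and Jumonji genes, 14 had a tested promoter region, with a median WT signal of 38.7 CPM, a median log2 fold change of -0.24 and none at an unadjusted p under 0.05. Over all tested promoter regions 6.7% were lower and 1.54% higher at that p. The smallest p values there were those of *Jarid2*, a Polycomb partner, at -0.35 (unadjusted p = 0.120, edgeR), and of *Kdm1b*, the second flavin-dependent demethylase, at -0.48 (unadjusted p = 0.133). *Kdm1b* shares its region with *Tpmt* and at 200 CPM was the highest of the list. The *Kdm1b* region was at -0.78 and was called without WT replicate 2 (adjusted p = 0.00148, edgeR, with 0.00148 to 1 over 14 alternatives), and it ran from -0.78 to -0.10 with 1 library left out. *Kdm6a*, the X-linked relative of *Kdm6b*, was chosen for its kinship after its values were seen and held 94.9, 81.2, 78.1 and 92.1 CPM.

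Of 24 histone lysine methyltransferase genes, 23 had a tested promoter, with a median log2 fold change of -0.33. *Ezh2*, the Polycomb methyltransferase whose mark KDM6B removes, held 50.8, 63.0, 42.5 and 30.6 CPM (-0.64, unadjusted p = 0.0374), and *Setd2* followed with -0.46 (unadjusted p = 0.0599). All 12 partner genes had a tested promoter, with a median of -0.42. Of these 12, 3 were lower at an unadjusted p under 0.05, as were 6.7% of all tested promoter regions. They were *Rcor1*, a corepressor bound to KDM1A, at -0.68 (unadjusted p = 0.0107, edgeR), and *Rnf2*, a Polycomb ubiquitin ligase, at -0.63 (0.0200). The last was *Eed*, named after its values were seen, at -0.47 (0.0452). DESeq2 called *Rcor1* (-0.69, adjusted p = 0.0196). Leaving out WT replicate 2 gave -0.76 for *Rcor1* and -0.70 for *Rnf2*, both called (adjusted p = 0.00699 and 0.0427, edgeR, with 0.00699 to 1 and 0.0427 to 1 over 14 alternatives). No promoter of any of these lists passed an adjusted p of 0.05 with all libraries in edgeR, and the median over all tested promoter regions was -0.21.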

How the data were processed

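The analysis used 2 WT and 2 Fam5snv/snv libraries of NR2F1 CUT&Tag. The authors deposited barcodes, called peaks without scores and a matrix of counts (cut sites by peak and barcode) for each of them. The study's methods name Cell Ranger-ATAC 2.0.0, the submitters' processing notes Cell Ranger ATAC and mm10, and the matrix headers give software version 1.2.0, so the stated versions differ. Peaks were called separately in each library. Counts were summed over barcodes, since cells are not replicates, with no further cell filter and no doublet caller. Peaks were merged at 1 bp overlap. Regions were kept when all 4 libraries had a peak and 2 or more had 10 cut sites, and were tested for Fam5snv/snv minus WT with edgeR 4.0.16 (glmQLFit, TMM, no block, R 4.3.3), with Benjamini-Hochberg adjustment over all 35770. Genes and start sites came from GENCODE M21, sequence from GRCm38.p6 and promoter windows from RefSeq. DESeq2 1.42.0, other scalings, filters, a replicate block, 100 bp merging and leaving out each library were alternatives. The named regions are all tested promoter regions of the 10 genes and the strongest tested region of each outside promoters. Every tested region at an unadjusted p under 0.05 and the 2 promoters of smallest p of each comparison list were named too. Members and lists were chosen with earlier results of these data known.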

Additional observations from a re-analysis of the deposited data

How the results depend on the processing

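No Kdm region was called under RLE size factors, library totals, scaling by barcodes, the filters, the replicate block (median log2 fold change -0.13, 0 calls over all regions), 100 bp merging or signal per kb of called peak. DESeq2 called 366 regions higher and 194 lower, 1 of them a higher Kdm region. Where each library had to cover at least 50% of a region, 14 regions were higher and 4 lower of 8900, 0 of them Kdm, and the median over 11 Kdm regions was 0.014, against -0.12 in the main fit. Per kb of called peak, chosen after seeing the data, it was 0.023 relative to all regions. With 1 library left out, the number of Kdm regions called ran from 0 to 5 for higher and from 0 to 4 for lower, and over all regions from 0 to 4094 and from 0 to 2221, calls arising only where a WT library was left out (1492 and 419 without WT replicate 1), and the lone sample is assumed to vary like the other genotype's. Of the 30 named regions, 12 were called in at least 1 alternative. Some of the 30 were named for a small p, and the share of all tested regions so called was not counted. The 12 therefore have no background and are not read as a trait of these regions.

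Directions turned in these cases, none of them called. At 50% coverage they were 0.19 for the internal Kdm2b promoter, 0.16 for the Kdm3b promoter, 0.021 downstream of Kdm3b, 0.014 upstream of Kdm5b and 0.18 upstream of Kdm7a. Upstream of Kdm2b it was 0.047 with library totals and 0.078 with at least 20 cut sites in every library. The Kdm5b promoter was -0.16 when scaled by barcodes, relative to a shift of 0.97 in all regions. Per kb of called peak and relative to a shift of -0.76, values were 0.19 for the Kdm1a promoter, 0.19 for the internal Kdm2b promoter, 0.11 upstream of Kdm2b, 0.23 for the Kdm3b promoter, 0.43 downstream of it, 0.075 and -0.34 upstream and downstream of Kdm5b, -0.19 and 0.095 for the exon and promoter regions of Kdm6b and 0.17 upstream of Kdm7a. With 1 library left out, values ran from -0.67 to 0.43 for the Kdm1a promoter, from -0.45 to 0.17 for the internal Kdm2a promoter, from -0.30 to 0.081 for the internal Kdm2b promoter, from -0.22 to 0.17 upstream of it, from -0.045 to 0.14 for the Kdm4a promoter, from -0.55 to 0.97 for the Kdm5b promoter, from -0.19 to 0.78 for the Kdm6b exons and from -0.28 to 0.026 upstream of Kdm7a. The cause was not tested. The number of Kdm regions was 34 when only regions with a peak in every library counted, against 223. The median share of barcodes with a cut site in a leading promoter region was 2.25%, 3.07% when thinned to the median depth of WT replicate 1 and 6.03% without thinning. Replicate numbers did not pair the libraries (correlation of deviations 0.0292 over 35770 regions). The lower WT depth limits what the weaker regions can show.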
